A study of Mus musculus with 10 samples.

Results

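DNA methylation was described at 9 genes of airway remodelling and the extracellular matrix: the matrix proteins fibronectin (Fn1), tenascin C (Tnc), periostin (Postn) and elastin (Eln), the growth factors Tgfb1 and Tgfb2, the receptor Pdgfra, and the proteases Mmp9 and Mmp12. The measured unit was a window of 1000 bases, taken every 500 bases along the genome, with the methylated and unmethylated cytosine calls of each mouse. Windows belonged to a gene where they overlapped its RefSeq span or the 5 kb on either side, which gave 184 of the 446336 windows in the table. The samples were lungs of 10 female BALB/c mice, bought at 8 weeks of age, in 3 groups. The saline group held 3 control mice, the OVA group held 3 mice injected with ovalbumin (OVA) in alum and then given OVA through the nose as an allergic asthma model, and the DSE group, labelled Herb, held 4 mice that received the same OVA protocol and oral Descurainia sophia seed extract (DSE). Each library was lung DNA of 1 mouse, and all 7 mice of the OVA and DSE groups had been exposed to OVA.

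Airway remodelling is the structural change of the airway wall in chronic asthma, with matrix deposition under the epithelium and more smooth muscle and fibroblasts. TGF-beta released by inflammatory and structural cells drives fibroblasts to make fibronectin, tenascin C and periostin, elastin gives the lung its recoil, PDGF receptor alpha marks lung fibroblasts and their progenitors, and the matrix metalloproteinases are made largely by neutrophils and macrophages. Promoters rich in CpG, the dinucleotide that carries the methyl group, are usually free of methylation whether or not the gene is active, while CpG-poor promoters, intragenic enhancers and the edges of CpG islands are the places where methylation differs between cell types.

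The files held between 153328794 and 205414739 cytosine calls per mouse when each position was counted once, and the median window of the 9 genes held 543 calls per mouse. At that depth the 95% Wilson interval of a level of 50% ran from 45.7% to 54.1%, and at the minimum of 20 calls used for the tests from 29.9% to 70.1%; reads without molecular identifiers are not independent molecules, so these intervals cover counting error only. Mice of the same group differed at the 184 windows by more than this, with a mean chi-square per window of 1.97 to 3.20 for pairs of mice where counting error alone gives about 1. Nothing in the labels tells whether mice were handled in batches. Start-site windows of marker genes were read as a description of the tissue. Over 11 of 12 leukocyte markers the mean level was 49.3% to 52.1% in the saline mice, 41.6% to 45.4% in the OVA-induced mice and 43.3% to 44.7% in the DSE-treated mice, so the 7 OVA-exposed mice lay below all saline mice. The 3 measured of 4 eosinophil markers were at 60.1% to 66.5%, 58.9% to 63.6% and 52.0% to 61.2% in the same order of groups, and the 4 of 6 lung epithelial markers at 32.8% to 37.7%, 33.4% to 34.9% and 32.5% to 39.8%. The 2 of 4 endothelial markers were at 30.2% to 35.2%, 32.8% to 38.8% and 32.0% to 33.2%. The 3 of 4 mesenchymal markers were at 7.93% to 8.88%, 5.43% to 7.76% and 7.27% to 7.87%. In this list too the 7 OVA-exposed mice lay below all saline mice, by a narrow margin. Its members differed in direction: Tcf21 was at 18.9%, 14.0% and 13.3% on average in the saline, OVA and DSE groups and Col1a2 at 2.83%, 3.74% and 5.34%, and 2 of the 3 were lower in the OVA group and 1 of the 3 in the DSE group than in saline.

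**Figure D1:**
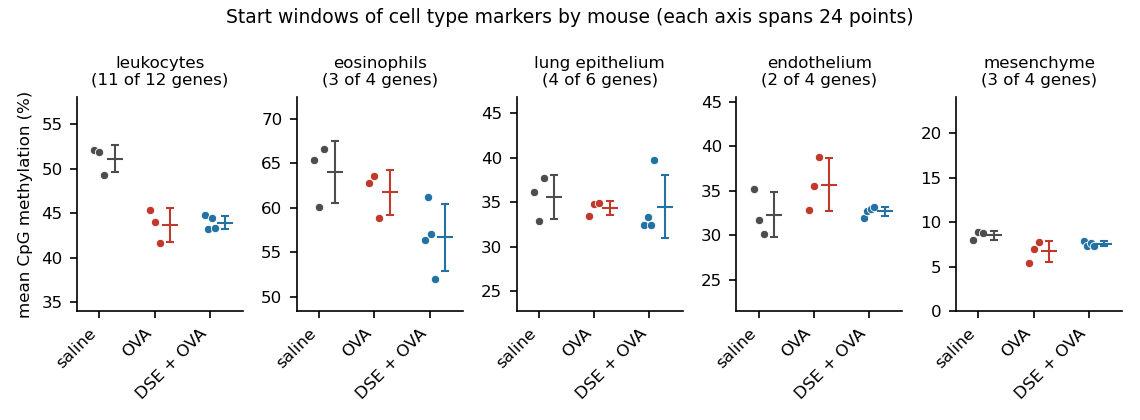
Mean CpG methylation (%) over the start windows of 5 lists of cell type markers, with 1 point per mouse, and the mean and SD of the group as a bar beside the points. The leukocyte list falls from 49.3% or more in every saline mouse to 45.4% or less in every OVA-exposed mouse. The mesenchymal list lies at 7.93% or more in every saline mouse and at 7.87% or less in every OVA-exposed mouse. The eosinophil, epithelial and endothelial lists overlap between saline and OVA-induced mice.

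Methylation was read at CpGs, and the sequences printed here show how many of them promoters and windows held. Promoters of 300 bases (250 before and 50 after the start) came from RefSeq on GRCm38.p6, the build of the files, and were held for 6 of the 9 genes. They are printed 5′ to 3′ on the strand of the gene with every CpG in capitals, for the growth factors, whose starts were covered by windows, and for periostin and Mmp12, whose starts were not.
Tgfb1, chr7:25686752-25687051, plus strand: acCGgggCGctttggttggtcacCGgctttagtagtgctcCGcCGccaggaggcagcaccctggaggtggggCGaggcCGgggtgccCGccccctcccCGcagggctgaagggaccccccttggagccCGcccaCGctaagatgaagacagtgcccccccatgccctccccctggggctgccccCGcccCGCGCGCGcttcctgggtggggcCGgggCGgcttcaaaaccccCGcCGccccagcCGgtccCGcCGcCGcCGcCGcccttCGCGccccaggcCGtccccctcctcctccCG
Tgfb2, chr1:186705940-186706239, minus strand: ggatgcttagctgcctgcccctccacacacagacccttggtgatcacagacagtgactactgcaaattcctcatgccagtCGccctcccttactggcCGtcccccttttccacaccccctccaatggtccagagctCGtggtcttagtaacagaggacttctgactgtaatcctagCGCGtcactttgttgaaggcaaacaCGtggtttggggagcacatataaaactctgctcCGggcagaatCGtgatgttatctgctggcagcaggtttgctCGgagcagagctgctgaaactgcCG
Postn, chr3:54359017-54359316, plus strand: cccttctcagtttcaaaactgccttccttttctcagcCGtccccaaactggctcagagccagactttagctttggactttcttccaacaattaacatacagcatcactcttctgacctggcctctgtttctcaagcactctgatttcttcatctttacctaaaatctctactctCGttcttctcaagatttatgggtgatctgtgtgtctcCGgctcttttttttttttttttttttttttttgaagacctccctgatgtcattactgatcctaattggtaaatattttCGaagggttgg
Mmp12, chr9:7344147-7344446, plus strand: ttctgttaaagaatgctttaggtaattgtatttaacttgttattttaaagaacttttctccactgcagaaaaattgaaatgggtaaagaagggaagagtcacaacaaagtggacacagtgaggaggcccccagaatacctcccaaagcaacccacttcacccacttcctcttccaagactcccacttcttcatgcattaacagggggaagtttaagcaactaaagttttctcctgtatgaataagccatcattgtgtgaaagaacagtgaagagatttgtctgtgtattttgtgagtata
The Tgfb1 promoter held 30 CpGs, more than 88.3% of the 32851 promoters in the table, and that of Tgfb2 held 10. The most upstream Postn promoter held 4 and that of Mmp12 held 0, against a median of 7 over all promoters. A further promoter, not printed, held 5 CpGs for Postn (1840 bases on) and 3 for Mmp12 (2977 bases on). Those of Tnc held 10 and, 79 bases on, 16 CpGs. All of these Postn, Tnc and Mmp12 promoters lay in no window, while that of Pdgfra, with 5 CpGs, lay in 2.

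The stretches of 300 bases with the most CpGs inside 5 of the windows that differed between groups are printed next, on the plus strand of GRCm38 and with CpGs in capitals. Where a window had an overlapping neighbour on only 1 side, the stretch was taken from the 500 bases the 2 windows shared, a rule set after the values were seen.
Tgfb1 upstream, chr7:25684113-25684412: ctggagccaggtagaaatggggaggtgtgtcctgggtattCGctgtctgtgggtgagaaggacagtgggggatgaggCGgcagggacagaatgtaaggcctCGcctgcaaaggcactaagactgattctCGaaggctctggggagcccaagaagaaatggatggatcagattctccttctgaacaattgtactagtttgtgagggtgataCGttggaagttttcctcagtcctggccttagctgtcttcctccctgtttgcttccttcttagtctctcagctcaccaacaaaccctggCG
Tgfb2 intron 1, chr1:186702535-186702834: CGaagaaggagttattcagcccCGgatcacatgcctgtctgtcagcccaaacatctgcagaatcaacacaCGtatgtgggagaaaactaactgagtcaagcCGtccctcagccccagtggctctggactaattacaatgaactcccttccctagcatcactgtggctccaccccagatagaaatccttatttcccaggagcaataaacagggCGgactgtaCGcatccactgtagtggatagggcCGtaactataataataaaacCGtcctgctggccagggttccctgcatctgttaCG
Eln intron 1, chr5:134740501-134740800: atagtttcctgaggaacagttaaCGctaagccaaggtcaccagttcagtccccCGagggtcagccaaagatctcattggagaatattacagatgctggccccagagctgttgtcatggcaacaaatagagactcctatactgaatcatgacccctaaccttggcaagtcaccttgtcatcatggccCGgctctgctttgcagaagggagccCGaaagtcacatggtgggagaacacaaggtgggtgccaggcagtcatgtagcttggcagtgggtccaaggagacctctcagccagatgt
Pdgfra intron 16, chr5:75184609-75184908: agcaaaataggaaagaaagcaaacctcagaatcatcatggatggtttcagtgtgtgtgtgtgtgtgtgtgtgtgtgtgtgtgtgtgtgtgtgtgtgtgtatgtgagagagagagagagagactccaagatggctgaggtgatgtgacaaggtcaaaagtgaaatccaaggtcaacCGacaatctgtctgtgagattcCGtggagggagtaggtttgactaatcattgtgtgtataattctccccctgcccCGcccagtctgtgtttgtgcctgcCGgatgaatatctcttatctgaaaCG
Tnc intron 15, chr4:63979501-63979800: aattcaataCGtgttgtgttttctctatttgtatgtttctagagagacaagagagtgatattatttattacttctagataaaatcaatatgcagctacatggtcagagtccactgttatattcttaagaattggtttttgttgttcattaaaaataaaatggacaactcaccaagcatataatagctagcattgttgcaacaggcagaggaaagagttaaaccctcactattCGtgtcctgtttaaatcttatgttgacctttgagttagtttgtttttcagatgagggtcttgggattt
They held 6, 9, 4, 5 and 2 CpGs, in that order, and thus far fewer than the Tgfb1 promoter. The Tnc result rests on the fewest sites, with 3 CpGs in the 500 bases of its 2 windows that gave all of their calls.

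In the saline mice, 44 of the 184 windows had a mean methylation level under 10%, 53 were above 80% and 87 lay between. The 42 windows that reached within 1 kb of a RefSeq start of their own gene had a median level of 2.74% and a median of 38 CpGs, the 53 exonic windows a median of 80.7%, and the 48 intronic windows a median of 56.7%. Pdgfra had the most windows under 10%, 18 of its 36. Mmp9 had 7 such windows of 31, of which 3 lay 8.7 to 9.7 kb upstream of its curated start, just before the predicted start of the longer gene span, and 1 over the start of the neighbour Slc12a5. The start was not covered in 3 genes. The nearest window of Tnc was centred 29.0 kb into the gene, the nearest of Postn 1.27 kb upstream, and the 3 windows of Mmp12 lay 17.6 to 18.6 kb from its start, in the flank after the gene, so the promoters of these genes are not analysed here.

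**Figure D2:**
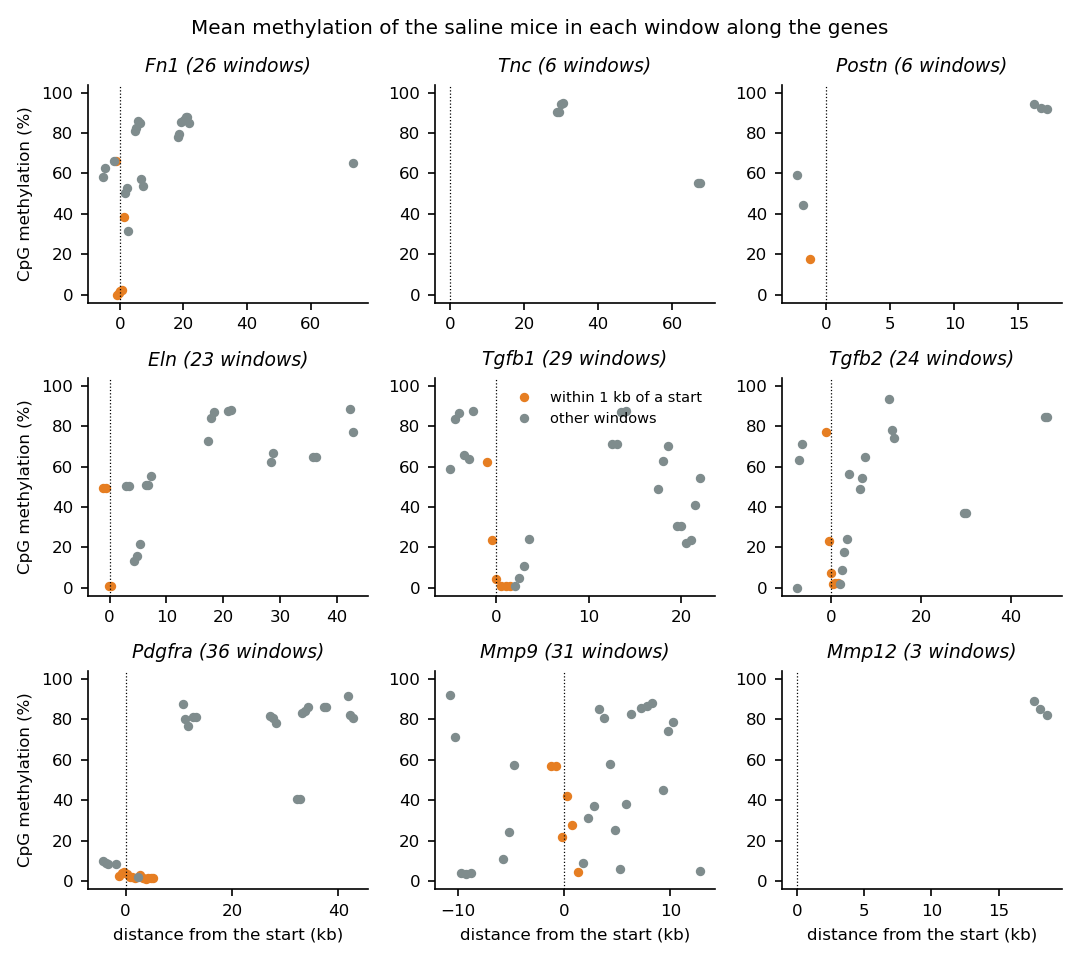
Mean CpG methylation (%) of the 3 saline mice in each window against the distance (kb) of the window centre from the transcript start, positive into the gene, for each of the 9 genes; orange points lie within 1 kb of a RefSeq start. Windows over the starts of Fn1, Eln, Tgfb1, Tgfb2 and Pdgfra sit below 10%, Mmp9 has 21.7% in the window nearest its curated start, and Tnc and Mmp12 have no window near theirs.

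The OVA-induced mice were compared with the saline mice to show what the allergic protocol changed, the DSE-treated with the OVA-induced mice to show what the extract changed, and the DSE-treated with the saline mice to show what remained. A window was called where a likelihood ratio test on the pooled calls gave an adjusted p under 0.01 and the groups differed by at least 10 percentage points. That test counts each call as a separate observation, so 2 further readings are given beside it: whether every mouse of 1 group lay on the same side of every mouse of the other (the groups were then apart), and the adjusted p of limma on M-values, in which the mouse is the replicate.

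Between the OVA-induced and saline mice, 14 of 182 tested windows were called (7.69%), against 7.31% of all windows. Of these 8 were higher and 6 lower in the OVA-induced mice, where 4.75% of all windows were higher and 2.56% lower. The groups were apart in 40 of 179 windows (22.3%), and in 27% of all windows. In bulk lung DNA a change in the cell mixture and a change of methylation within a cell cannot be told apart, here or in any later result. With limma at an adjusted p under 0.05 and at least 10 points, a rule added after the data were seen, 0 of these windows and 0% of all windows were called. With 3 or 4 mice a group this test has little power for differences of the size called here, so an adjusted p over its threshold, here and beside each window, does not show that groups were alike. The split of the 14 calls depended on the mice and the flanks: it was 11 higher and 3 lower without OVA replicate 3, and 8 higher and 1 lower over the gene spans alone.

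Between the DSE-treated and OVA-induced mice, 2 of 180 windows were called (1.11%, against 1.62% of all windows). Both were in Tnc and lower in the DSE-treated mice; 0.725% of all windows were lower and 0.898% higher. The groups were apart in 13 of 178 windows (7.30%, against 10.2%). By limma 0.0555% of all windows were called and 0 at these genes. The largest differences were 16.9 points lower and 5.77 points higher in the DSE-treated mice.

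Between the DSE-treated and saline mice, 17 of 181 windows were called (9.39%, against 8.01% of all windows). Of these 10 were higher (background 4.95%) and 7 lower (background 3.07%), with 8 and 4 without saline replicate 1 and 10 and 1 over the gene spans alone. The groups were apart in 39 of 179 windows (21.8%, against 24.1%). By limma 7 windows were called, against 3.4% of all windows: 2 in Eln, 3 upstream of Tgfb1 and 2 in Tgfb2. All 7 OVA-exposed mice lay on the same side of all 3 saline mice in 27 of 178 windows (15.2%, against 14.2% of all windows), 17 of them higher and 10 lower. The shares at these genes were thus close to the background in each comparison. The 2 comparisons with saline share the saline mice, and the 2 with OVA share the OVA-induced mice. None of the 42 windows that reached within 1 kb of a start of their own gene was called in any comparison. A window under 10% cannot fall by the 10 points of a call, and the median of these 42 windows was 2.74% in the saline mice. The share called among all start windows of the table is not given here, so the count does not show that these starts were unchanged.

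**Figure D3:**
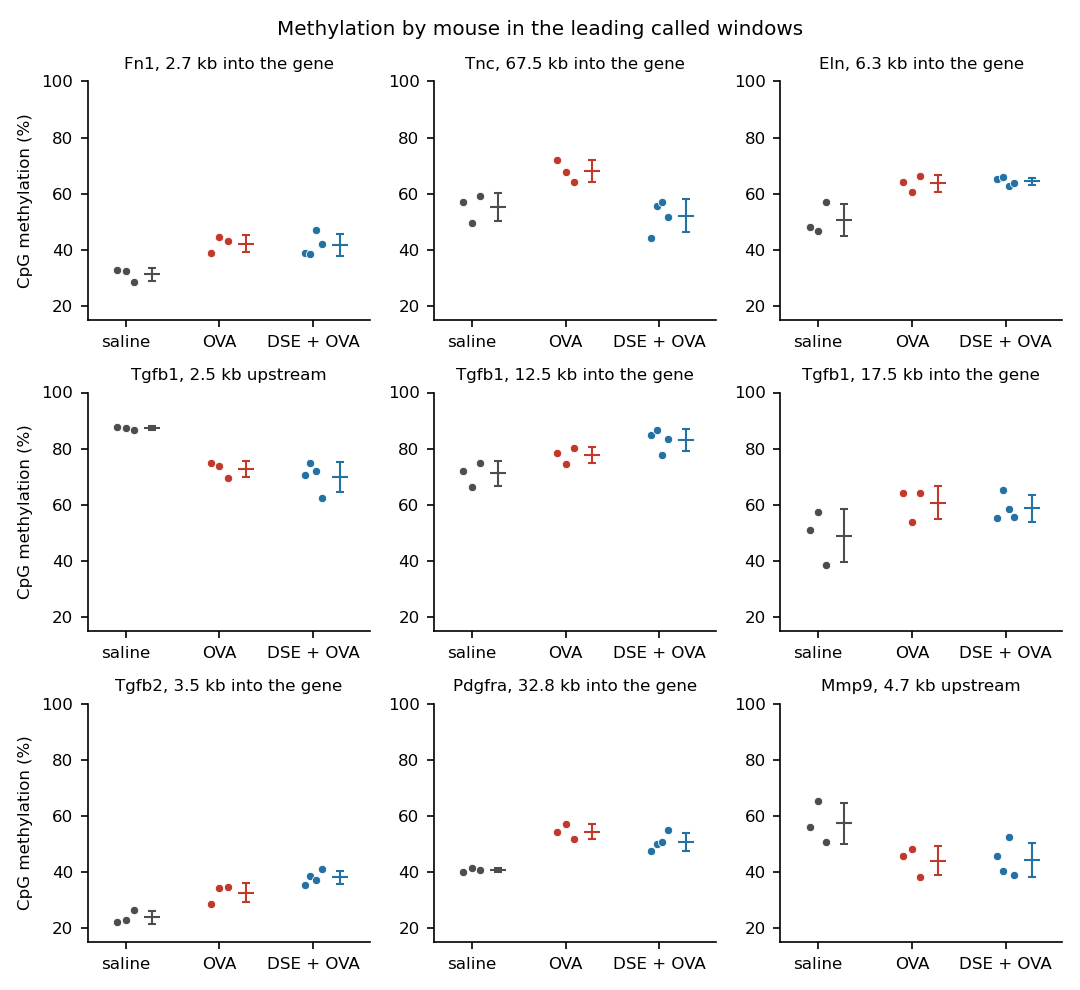
CpG methylation (%) of each mouse in the window with the largest difference of each called run, with the mean and SD of the group as a bar beside the points. Tgfb1 2.5 kb upstream and Mmp9 4.7 kb upstream of the curated start are lower in the OVA-induced mice, Fn1, Eln, Pdgfra and Tgfb2 are higher in both OVA-exposed groups than in all saline mice, and Tnc is higher in the OVA-induced mice alone.

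Fn1 encodes fibronectin, the glycoprotein that organises the provisional matrix. The window over its start held 68 CpGs and was at 1.73% ± 0.563 (SD, n = 3) in the saline, 1.64% ± 0.307 (SD, n = 3) in the OVA-induced and 1.96% ± 0.324 (SD, n = 4) in the DSE-treated mice. The called window lay beyond this unmethylated region, 2.73 kb into the gene and over exon 3 (chr1:71650001-71651000). The saline mice had 33.0%, 32.4% and 28.8% there, the OVA-induced mice 38.8%, 44.6% and 43.4%, and the DSE-treated mice 38.9%, 38.8%, 47.3% and 42.4%. All OVA-exposed mice were above all saline mice, and the 2 OVA-exposed groups overlapped. The pooled difference was 10.8 points for OVA against saline (likelihood ratio test, adjusted p = 1.63e-06; limma, adjusted p = 0.134) and 10.3 points for DSE against saline (adjusted p = 1.02e-06; limma, adjusted p = 0.0744). It was close to the threshold: without saline replicate 3 it was 9.43 and 8.93 points, without OVA replicate 2 it was 9.55 and without DSE replicate 3 it was 8.70, under the 10 points of a call.

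For DSE against OVA, where Fn1 had no call, the window named was the one with the largest difference among those whose groups were apart, 1.23 kb into the gene (chr1:71651501-71652500). The saline mice had 37.9%, 37.6% and 40.4%, the OVA-induced mice 45.7%, 48.7% and 43.9%, and the DSE-treated mice 38.6%, 36.8%, 36.3% and 41.5%. The OVA-induced mice were above every other mouse, and the DSE-treated mice overlapped the saline mice. DSE against OVA was -7.63 points, short of the 10 points of a call (likelihood ratio test, adjusted p = 1.8e-07; limma, adjusted p = 0.356). The start of the non-coding gene Apol7d lies within 1 kb of this window.

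The largest difference at Fn1 was in a thinly covered window 4.77 kb upstream (chr1:71657501-71658500), with 34 to 61 calls per mouse, which was singled out after its values were seen. The saline mice had 69.6%, 51.9% and 66.1%, the OVA-induced mice 85.7%, 77.3% and 71.7%, and the DSE-treated mice 75.4%, 85.3%, 78.0% and 69.6%. The OVA-induced mice were above all saline mice, and DSE replicate 4 lay just below the highest saline mouse. OVA against saline was 15.1 points and DSE against saline 13.8 points, and neither was called (likelihood ratio test, adjusted p = 0.0117 and 0.0127; limma, adjusted p = 0.205 and 0.135). The window overlapping it further upstream (chr1:71658001-71659000) had 647 to 863 calls per mouse. It differed from saline by only 7.35 points for OVA, with overlapping mice, and by 6.73 points for DSE. Both windows lie inside Apol7d.

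Tnc encodes tenascin C, a matrix glycoprotein made in wound repair and in asthmatic airways. It had 6 windows, 4 of them over exon 3 at 90.6% to 94.9% in the saline mice, and 2 in intron 15 (chr4:63979001-63980000 and the window 500 bases on) that held the same calls. In these the saline mice had 57.3%, 49.7% and 59.1%, the OVA-induced mice 72.1%, 67.8% and 64.4%, and the DSE-treated mice 44.3%, 55.9%, 57.2% and 51.8%, from 118 to 221 calls per mouse. The OVA-induced mice were above every mouse of the other groups, and the DSE-treated and saline mice overlapped. The difference was 13.9 points for OVA against saline (likelihood ratio test, adjusted p = 0.000151; limma, adjusted p = 0.149) and -16.9 points for DSE against OVA (adjusted p = 2.05e-07; limma, adjusted p = 0.188). These 2 comparisons share the OVA-induced mice. The first call was lost without saline replicate 2 (10.5 points, adjusted p = 0.0199) or OVA replicate 1 (11.4 points, adjusted p = 0.0105), and the second remained without each of its 7 mice. DSE against saline was -3.08 points and was not called (adjusted p = 0.45). On average in the OVA-induced and DSE-treated mice, the leukocyte marker list was at 43.7% and 43.9%, and the mesenchymal list at 6.72% and 7.54%. The eosinophil list was at 61.8% and 56.7%, the epithelial list at 34.4% and 34.5% and the endothelial list at 35.7% and 32.7%. The part of these lists in the Tnc difference was not tested.

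Postn encodes periostin, a matricellular protein that epithelial cells and fibroblasts make under type 2 cytokines. The window nearest its start (chr3:54357501-54358500) had 17 to 94 calls and was at 14.3%, 34.8% and 3.33% in the saline mice, 17.6%, 26.9% and 17.4% in the OVA-induced mice, and 19.1%, 23.7%, 23.2% and 26.7% in the DSE-treated mice. The saline mice spanned the range of both other groups. Its 3 windows over exons 12 to 15 were at 91.7% to 94.2% in the saline mice. No window of Postn was called, and in no window with 20 calls in every mouse were the groups apart.

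Eln encodes elastin. The start window (39 CpGs) was at 0.800%, 0.712% and 0.936% in the saline mice, at 2.35%, 1.17% and 3.19% in the OVA-induced mice, and at 3.14%, 1.24%, 2.45% and 2.10% in the DSE-treated mice. The 7 OVA-exposed mice were all above the saline mice, by 1.36 points for OVA and 1.41 for DSE, far below the 10 points of a call (limma, adjusted p = 0.147 and 0.0479). The called windows lay 6.3 to 6.8 kb into the gene in intron 1. In the window of the larger difference (chr5:134740501-134741500) the saline mice had 48.2%, 46.8% and 57.1%, the OVA-induced mice 64.2%, 60.6% and 66.5%, and the DSE-treated mice 65.2%, 65.8%, 62.7% and 64.0%. All 7 OVA-exposed mice were above the saline mice, and the DSE-treated mice lay within the range of the OVA-induced mice. The difference was 12.3 points for OVA against saline (likelihood ratio test, adjusted p = 1.51e-13; limma, adjusted p = 0.146) and 13.3 points for DSE against saline (adjusted p = 5.92e-18; limma, adjusted p = 0.0463). Both calls held without each mouse in turn. DSE differed from OVA by 1.00 point here (adjusted p = 0.69). The only windows called in DSE against OVA were those of Tnc, and at Eln the window with the largest difference among those apart, over exons 7 to 9, differed by -2.02 points with 86.4%, 86.2% and 86.4% in the OVA-induced mice and 82.3%, 85%, 86.0% and 84.5% in the DSE-treated mice.

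Tgfb1 encodes TGF-beta 1, the main profibrotic cytokine. It had the most called windows of the 9 genes, 6 for OVA and 8 for DSE against saline, and the most with lower methylation. The start window held 75 CpGs and was at 4.39% ± 0.376 (SD, n = 3), 4.67% ± 0.849 (SD, n = 3) and 5.17% ± 1.01 (SD, n = 4) in the saline mice, the OVA group and the DSE group. The windows with lower methylation lay 2.5 to 5.0 kb upstream, inside the neighbouring gene B9d2 (chr7:25680780-25686562, same strand), which ends before Tgfb1 starts. B9d2 encodes a protein of the ciliary transition zone, so these windows can belong to either gene, and the 2 farthest from Tgfb1 reached within 1 kb of the B9d2 start.

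In the window nearest to Tgfb1 (chr7:25684001-25685000) the saline mice had 87.9%, 87.4% and 86.7%, the OVA-induced mice 75%, 73.9% and 69.7%, and the DSE-treated mice 70.7%, 75.05%, 72.1% and 62.6%. Every OVA-exposed mouse was below every saline mouse, and the 2 OVA-exposed groups overlapped. The difference was -14.2 points for OVA against saline (likelihood ratio test, adjusted p = 1.42e-14; limma, adjusted p = 0.103) and -16.8 points for DSE against saline (adjusted p = 1.28e-23; limma, adjusted p = 0.0257), and both calls held without each mouse in turn. DSE against OVA was -2.53 points (adjusted p = 0.35). The overlapping windows further upstream differed by -10.8 to -13.2 points for OVA and -10.1 to -14.3 points for DSE against saline, so 5 windows in a row were called for OVA and 6 for DSE. In the leukocyte list, and by a narrow margin in the mesenchymal list, all OVA-exposed mice also lay below all saline mice. The members of the mesenchymal list differed in direction, with 2 of 3 lower than saline in the OVA group and 1 of 3 in the DSE group. The part of these lists in the result was not tested.

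Inside Tgfb1 the called windows were higher in the OVA-exposed mice. In intron 5 (chr7:25699001-25700000) the saline mice had 72.2%, 66.4% and 75%, the OVA-induced mice 78.4%, 74.7% and 80.1%, and the DSE-treated mice 84.8%, 86.8%, 77.6% and 83.6%. The DSE-treated mice were above all saline mice and the OVA-induced mice overlapped both. DSE against saline was 12.1 points (likelihood ratio test, adjusted p = 1.98e-09; limma, adjusted p = 0.0604) and 9.97 points without saline replicate 2. Over exons 6 and 7 (chr7:25704001-25705000) OVA against saline was 12.5 points, but the saline mice, at 51.2%, 57.4% and 38.8%, overlapped the OVA-induced mice, at 64.2%, 53.9% and 64.3%. That difference was 7.51 points without saline replicate 3. The DSE-treated mice had 55.3%, 65.4%, 58.6% and 55.7% there and overlapped both groups. For DSE against OVA, where Tgfb1 had no call, the window named lay after the gene (chr7:25706001-25707000) with 27.5%, 26.4% and 25.3% in the OVA-induced and 31.3%, 29.3%, 30.6% and 32.1% in the DSE-treated mice, a difference of 4.38 points; the saline mice, at 32.8%, 34.0% and 24.7%, overlapped both.

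**Figure D4:**
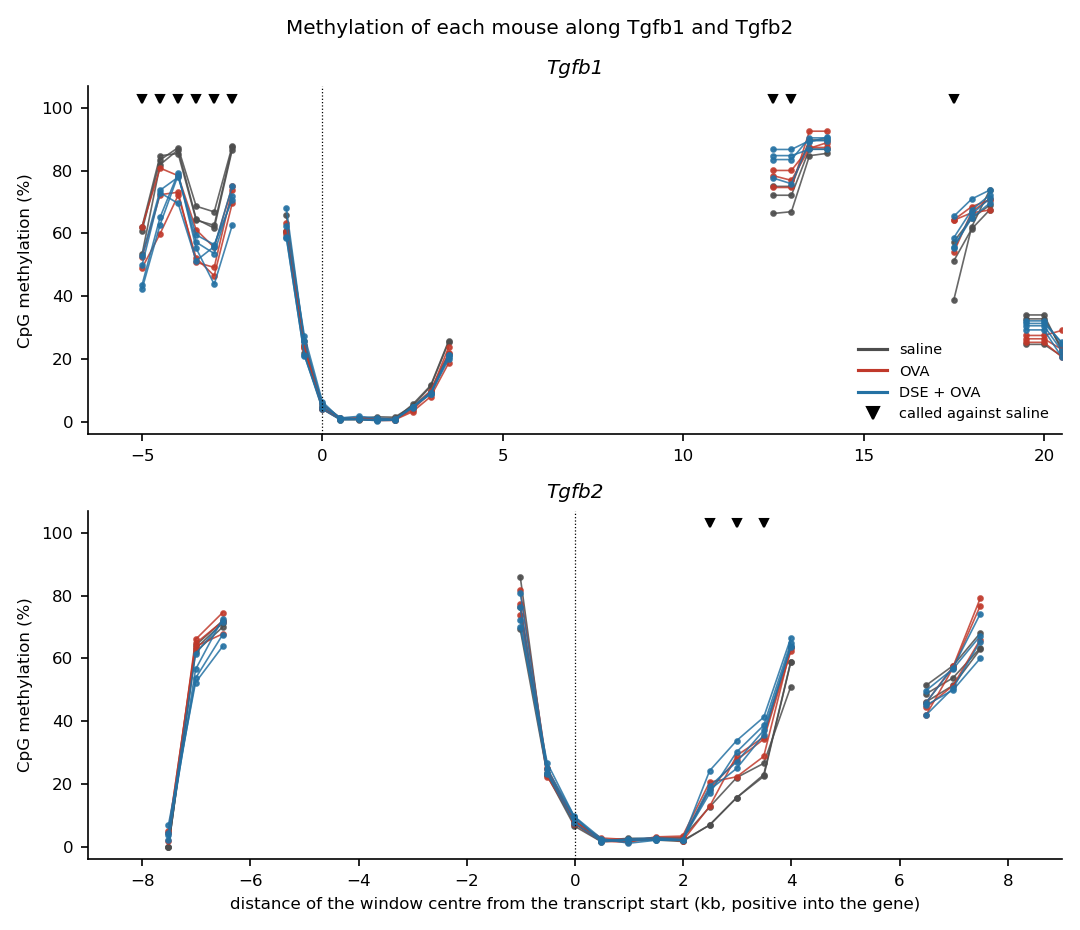
CpG methylation (%) of each mouse in the windows along Tgfb1 (top) and near the start of Tgfb2 (bottom) against the distance (kb) of the window centre from the transcript start; triangles mark windows called for OVA or DSE against saline. Upstream of Tgfb1, 2.5 kb from the start, the saline mice sit at 86.7% to 87.9% above all OVA-exposed mice, the windows over both starts are under 10% in all 10 mice, and 3.5 kb into Tgfb2 the saline mice, at 22.4% to 26.5%, lie lowest.

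Tgfb2 encodes TGF-beta 2, which airway epithelium and eosinophils release. Its CpG island was at 1.71% to 2.46% over the windows 0.5 to 1.5 kb into the gene in the saline mice, and the start window was at 7.32% ± 0.779 (SD, n = 3), 7.94% ± 0.564 (SD, n = 3) and 8.90% ± 0.973 (SD, n = 4) in the saline mice, the OVA group and the DSE group, with the start taken from the curated transcripts; a predicted one begins further upstream. The groups separated on the edge of this island in intron 1, where the predicted non-coding gene Gm35655 overlaps. In the window 3.49 kb into the gene (chr1:186702001-186703000), with 1488 to 2579 calls per mouse, the saline mice had 22.4%, 22.9% and 26.5%, the OVA-induced mice 28.7%, 34.2% and 34.9%, and the DSE-treated mice 35.6%, 38.6%, 37.0% and 41.2%. The 3 groups did not overlap in this window and stood in the order saline, OVA, DSE. In the windows overlapping it on either side the OVA-induced and DSE-treated mice overlapped. These windows were at 56.2%, 63.1% and 64.7% (chr1:186701501-186702500) and at 17.7%, 26.3% and 29.0% (chr1:186702501-186703500) on average in the saline, OVA and DSE groups. DSE against OVA was 1.65 and 2.77 points in them. The level of the named window also depends on how its calls are shared between these parts, which was not tested. In the named window DSE against saline was 14.1 points (likelihood ratio test, adjusted p = 1.7e-65; limma, adjusted p = 0.0281). OVA against saline was 8.56 points and DSE against OVA 5.52 points, both under the 10 points of a call (limma, adjusted p = 0.164 and 0.56); without OVA replicate 1 the first was 10.5 points and was called. The 2 windows closer to the island differed by 11.1 and 10.4 points for DSE against saline and were called as well.

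For DSE against OVA the window named at Tgfb2 lay 7.01 kb upstream of the start (chr1:186712501-186713500). The saline mice had 63.1%, 62.0% and 64.1%, the OVA-induced mice 63.8%, 66.0% and 64.7%, and the DSE-treated mice 53.7%, 61.4%, 56.4% and 52.3%. The DSE-treated mice were below all other mice, and DSE against OVA was -8.63 points (likelihood ratio test, adjusted p = 1.19e-06; limma, adjusted p = 0.339), which was no call. Without DSE replicate 2 the difference was -10.6 points and was called. In the windows overlapping it on either side the OVA-induced and DSE-treated mice overlapped. The window chr1:186712001-186713000 was at 71.0%, 71.4% and 68.9% on average in the saline, OVA and DSE groups. The window chr1:186713001-186714000, with 41 to 167 calls per mouse, was at 0%, 3.74% and 4.18%. DSE against OVA was -1.85 and 0.517 points in them. The level of the named window also depends on how its calls are shared between these parts, which was not tested.

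Pdgfra encodes the alpha receptor for platelet-derived growth factor. The start window (30 CpGs, 4813 to 6461 calls) was at 5.33%, 3.86% and 4.49% in the saline mice, 5.18%, 4.95% and 5.29% in the OVA-induced mice, and 5.76%, 5.74%, 5.50% and 6.2% in the DSE-treated mice. The DSE-treated mice were above all others, by 0.681 points against OVA, a difference that was not called. The called windows lay 32.3 and 32.8 kb into the gene in intron 16. In the window of the larger difference (chr5:75184501-75185500) the saline mice had 40.0%, 41.5% and 40.9%, the OVA-induced mice 54.4%, 57.0% and 51.7%, and the DSE-treated mice 47.5%, 50%, 50.6% and 55.1%. The saline mice lay close together and below all OVA-exposed mice. The difference was 13.7 points for OVA against saline (likelihood ratio test, adjusted p = 3.81e-08; limma, adjusted p = 0.105) and 10.2 points for DSE against saline (adjusted p = 2.07e-06; limma, adjusted p = 0.0659). The second was 9.71 points without saline replicate 1 and 8.43 without DSE replicate 4, and then not called.

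Mmp9 encodes gelatinase B, a protease of neutrophils, eosinophils and macrophages. RefSeq gives the gene the span chr2:164940326-164955850, from a predicted transcript, while the curated transcript starts at position 164948219, from which distances were counted. The window centred nearest that start held 15 CpGs and 106 to 285 calls, with 23.7%, 17.8% and 23.6% in the saline mice, 14.5%, 16.1% and 16.3% in the OVA-induced mice and 15.8%, 14.2%, 9.43% and 14.3% in the DSE-treated mice. All 7 OVA-exposed mice were below the saline mice, with differences of -5.74 points for OVA and -7.55 points for DSE, under the 10 points of a call (limma, adjusted p = 0.196 and 0.0813). The next window, which also holds the start (chr2:164948001-164949000) and had 849 to 1445 calls, was added after its values were seen. It was at 43.6%, 38.1% and 44.9% in the saline mice, 43.75%, 42.2% and 43.4% in the OVA-induced mice, and 35.8%, 39.6%, 41.0% and 45.6% in the DSE-treated mice, and there the groups overlapped, with differences from saline of 0.70 points for OVA and -1.75 points for DSE. The called window lay 4.72 kb upstream of the curated start and inside the predicted gene span (chr2:164943001-164944000). The saline mice had 56.1%, 65.2% and 50.9%, the OVA-induced mice 45.9%, 48.1% and 38.3%, and the DSE-treated mice 45.7%, 40.2%, 52.5% and 38.8%. The OVA-induced mice were below all saline mice, and DSE replicate 3 overlapped them. The difference was -12.5 points for OVA against saline (likelihood ratio test, adjusted p = 0.00023; limma, adjusted p = 0.2) and -12.7 points for DSE against saline (adjusted p = 3.4e-05; limma, adjusted p = 0.134). Without saline replicate 2 these were -9.16 and -9.33 points, and without OVA replicate 3 the first was -9.80 points, so neither then passed. As given for the region upstream of Tgfb1, the leukocyte list was lower in the OVA-exposed mice. The mesenchymal list was lower by a narrow margin only, with members that differed in direction. The part of these lists was not tested.

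Mmp12 encodes macrophage elastase. Its 3 windows were at 82.2% to 88.9% in the saline mice and none was called. In the nearest to the gene (chr9:7361501-7362500) the saline mice had 90.3%, 89.5% and 87.0%, the OVA-induced mice 85.1%, 86.7% and 93.6%, and the DSE-treated mice 89.1%, 88.2%, 87.9% and 88.7%. The 3 groups overlapped, and in none of the 3 windows were any 2 groups apart.

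The mean over all windows of a gene was then compared in limma with the mouse as replicate, over 32864 genes. Against saline, 12.4% of all genes were called for OVA and 18.2% for DSE at an adjusted p under 0.05, and 0.0183% for DSE against OVA. In OVA against saline 1 of the 9 genes was called, Tnc, with means of 80.6%, 78.0% and 82.0% in the saline mice and 86.0%, 85.4% and 84.4% in the OVA-induced mice. Its difference was 5.08 points ± 1.37 (SE; limma, adjusted p = 0.0405). The mean rested largely on the 2 windows of intron 15 that hold the same calls, at 13.9 points each, since the 4 windows of exon 3 differed by 0.96 to 1.34 points. With the calls of all windows pooled, the difference was 2.02 points (adjusted p = 0.197). The call was lost, with differences between 3.98 and 5.51 points, when any mouse other than saline replicate 3 was left out. Eln followed at 2.59 points ± 0.768 (SE; adjusted p = 0.0538), then Fn1 at 2.42 points ± 0.928 (SE; adjusted p = 0.108), Tgfb2 at 1.74 points ± 0.713 (SE; adjusted p = 0.13) and Pdgfra at 1.58 points ± 0.676 (SE; adjusted p = 0.145). In each of these 4 genes every OVA-induced mouse lay above every saline mouse, and the share of all genes that did so is not given here. At an unadjusted p under 0.05 in limma were 5 of the 9 genes, and 10226 of all 32864 genes. The median gene of the whole table differed by 1.01 points, so a small positive difference was common.

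In DSE against OVA 3008 of all 32864 genes had an unadjusted p under 0.05 in limma. None of the 9 genes was called, with 1 at such an unadjusted p. That gene was Tnc, with 75.9%, 80.3%, 80.6% and 79.6% in the DSE-treated mice, a difference of -6.17 points ± 1.29 (SE; adjusted p = 0.155), and of -2.73 points with pooled calls (adjusted p = 0.0468). The other 8 genes differed by between -1.08 and 0.522 points. In DSE against saline Eln was called, at 53.7%, 53.2% and 53.6% in the saline mice and 55.2%, 56.9%, 57.6% and 55.8% in the DSE-treated mice. Its difference was 2.87 points ± 0.718 (SE; limma, adjusted p = 0.0254), and the call was lost without saline replicate 1, 2 or 3 or DSE replicate 2 or 3, with adjusted p between 0.0555 and 0.0856. Fn1 was called in addition without DSE replicate 1. The mean of Tgfb1 was 44.2%, 42.7% and 43.2% in the saline, OVA-induced and DSE-treated mice, a difference of -1.47 points for OVA against saline that turned to 1.78 points when the 5 kb flanks were left out, since the upstream windows with lower methylation lie in a flank. Without flanks, Tgfb1 at 2.53 points (limma, adjusted p = 0.0251) and Mmp9 at -2.76 points (limma, adjusted p = 0.0198) were called for DSE against saline as well. The share of all genes called without flanks is not given here.

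**Figure D5:**
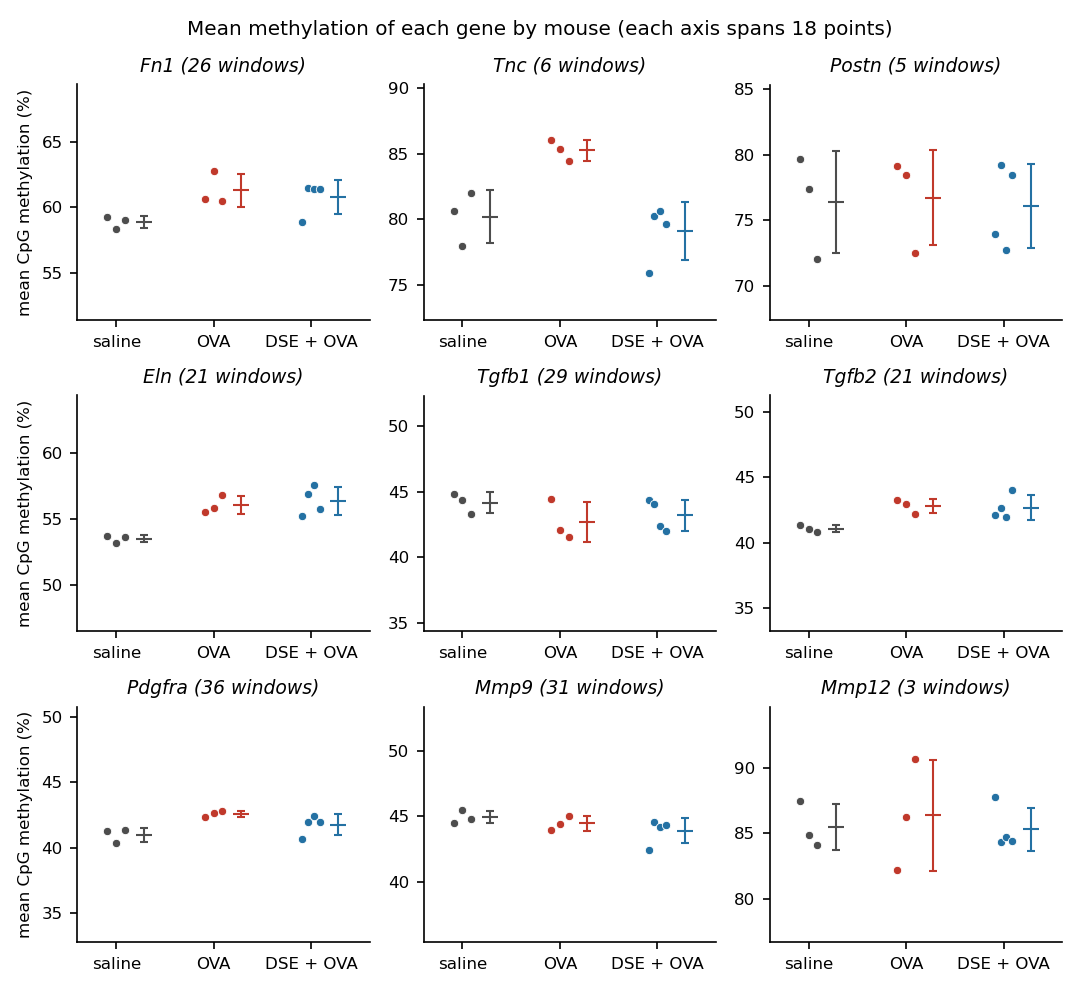
Mean CpG methylation (%) of each gene by mouse, over the windows where each of the 10 mice had 20 calls or more, with the mean and SD of each group as a bar beside the points; each axis spans the same number of points. The OVA-induced mice of Tnc sit at 84.4% to 86.0% above all other mice, and the saline mice of Eln at 53.2% to 53.7% below all other mice.

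Of 46 further genes of the matrix, the TGF-beta pathway and its targets, 44 had windows and 42 could be fitted. In OVA against saline 9 of the 42 were called by limma, 8 higher and 1 lower, where 12.4% of all genes were called, 3025 higher and 1053 lower, with a median difference of 1.74 points against 1.01 over all genes. Those higher were Smad6 (5.26 points ± 1.28, SE), an inhibitor of TGF-beta family signalling, Sparc (5.61 points ± 0.979, SE), which binds collagen, Mmp14 (5.64 points ± 1.06, SE), a membrane-bound collagenase, Thbs1 and Itgb6, which activate latent TGF-beta, Loxl1, which cross-links elastin, Ccn2, and Pdgfb, a ligand of the PDGF receptors. Mmp2, gelatinase A, fell by 5.27 points ± 0.937 (SE). By window, 64 of 1072 were called higher and 25 lower (8.30% together, against 7.31% of all windows, 4.75% higher and 2.56% lower). In DSE against OVA 0 of the 42 genes were called by limma. At an unadjusted p under 0.05 were 4 of the 42, and 3008 of all 32864 genes. By window, 6 of 1075 were called higher and 12 lower (1.67% together, against 1.62% of all windows). In DSE against saline 14 genes were called, 11 higher and 3 lower, where 18.2% of all genes were called, 4513 higher and 1452 lower, with a median of 1.65 points against 1.05 over all genes. The 3 lower were Mmp2 (-4.13 points ± 0.877, SE), the signal transducer Smad3 (-2.45 points ± 0.577, SE) and the receptor Tgfbr1 (-3.21 points ± 0.958, SE). Among the 11 higher were Ccn2 (6.35 points ± 1.12, SE), the connective tissue growth factor that TGF-beta induces, Ltbp3 (5.04 points ± 1.06, SE), which stores TGF-beta in the matrix, and Acta2 (5.55 points ± 1.54, SE), smooth muscle actin, and also Smad6, Thbs1, Sparc, Mmp14, Itgb6, Pdgfb and Bmp4.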

How the data were processed

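Lung DNA was enriched with SureSelect Methyl-seq and sequenced in paired ends on an Illumina HiSeq. Per the study's methods, the authors trimmed reads with Cutadapt, aligned them to mm10 with Bismark and tiled the calls with methylKit; the submitters' processing notes give cutadapt 1.10, Bismark 0.19.0 and methylKit 1.0.0. The authors deposited counts of coverage, methylated and unmethylated cytosines per window and mouse, not normalized, with at least 10 calls in every mouse. Capture limits windows to targeted regions, and overlapping windows share calls.

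Methylation was 100 times methylated calls over coverage, in mice with at least 20 calls. Windows with 2 such mice per group were compared with a binomial likelihood ratio test on pooled calls without overdispersion, as in methylKit, and with limma 3.58.1 (R 4.3.3) on log2 M-values (pseudocount 1). Gene means over windows with 20 calls in all 10 mice, at least 3 windows, were fitted in limma for all mice together. P-values were Benjamini-Hochberg adjusted over all windows or genes, and tests are two-sided. Both steps were tested on simulated data. There the window limma missed changes of about the called size, so the simulated sizes and noise were changed, and it then recovered most of the larger changes; the likelihood ratio test made many false adjusted p-values under noise between mice. Named windows were, per gene, the one centred nearest the most upstream start of its curated RefSeq transcripts, predicted ones not used (these extend the spans of Mmp9 and Tgfb2 further upstream); per comparison, the largest difference in each run of called windows, or, without a call, the largest among windows whose groups were apart. The further genes were named where called, apart from an item that is not reported here. Exons were numbered in the longest RefSeq transcript. The genes and lists were chosen with earlier results of these data known. limma at an adjusted p under 0.05 on windows was added after seeing the data. Alternatives changed the minimum of calls, test, threshold, scaling, overlap, CpG number, flanks and block, and left out each mouse.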

Additional observations from a re-analysis of the deposited data

Results flagged for a closer look

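Among the 4 DSE-treated mice, replicate 1 stood apart from the other 3 by Dixon's criterion in 3 of the 31 values tested, all of them gene means; the 31 were the 9 gene means and the named windows. It was at 58.9% for Fn1, where the others were at 61.4% to 61.5%, at 42.5% for Mmp9, where the others were at 44.2% to 44.6%, and at 87.8% for Mmp12, where the others were at 84.3% to 84.7%. Chance flags about 1 in 20 such groups, and groups of 3 mice were not tested.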

How the results depend on the processing

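The numbers of called windows for OVA against saline, DSE against OVA and DSE against saline (14, 2 and 17) became 0, 0 and 0 with an F test for overdispersion, with limma at an adjusted p under 0.01 or with a minimum difference of 20 points, 0, 0 and 7 with limma at an adjusted p under 0.05 (chosen after seeing the data), and 9, 1 and 10 over windows that do not overlap, which are fewer. Without flanks they were 9 and 11 against saline. The minimum of calls, complete coverage, unweighted means, scaling and CpG number left them within 1.5 times. Leaving out 1 mouse gave 12 to 15, 2 to 3 and 12 to 19 calls. Of the gene means, of which 1, 0 and 1 were called, 0, 3 and 3 were called with pooled calls, 0 for OVA against saline with M-values, and 3 for DSE against saline without flanks. Leaving out 1 mouse gave 0 to 1 against saline for OVA and 0 to 2 for DSE. The shares of all genes called under these settings are not given here, so these counts do not set the 9 genes apart. The causes of these changes were not tested.

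Deviations of mice with the same replicate number correlated at -0.03 to 0.08, so the numbers do not pair the mice. With the replicate block, which leaves out DSE replicate 4, 14, 3 and 13 windows were called, and 0, 0 and 0 genes; the Mmp12 mean for DSE against saline became 0.11 points.

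Signs turned only in gene means that had not passed the test. With pooled calls, OVA against saline was -0.71 for Postn, -0.97 for Fn1 and 0.23 for Mmp9; DSE against OVA was 4.96 for Fn1 and 4.27 for Tgfb2, and DSE against saline 0.052 for Tgfb1. With 50 calls, Postn was -0.092 (OVA against saline) and Tgfb2 0.15 (DSE against OVA). Without flanks, Postn was -0.28 and Tgfb1 1.78 (OVA against saline), Tgfb2 0.46 (DSE against OVA) and Tgfb1 2.53 (DSE against saline). Leaving out 1 mouse, OVA against saline ran from -1.80 to 2.43 for Postn and -1.25 to 2.97 for Mmp12. DSE against OVA ran from -2.69 to 0.61 for Postn, -0.93 to 0.20 for Fn1, -0.12 to 0.66 for Eln, -0.046 to 1.40 for Tgfb1, -0.57 to 0.11 for Tgfb2 and -3.16 to 1.06 for Mmp12. DSE against saline ran from -2.41 to 1.38 for Postn and -1.01 to 0.79 for Mmp12.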
